A study of Drosophila melanogaster with 30 samples.

Results

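Gene deserts were taken as gaps of 20 kb or more between neighbouring gene bodies, counting every annotated gene of Drosophila melanogaster whatever its type (genome release 6), on chromosome arms 2L, 3L, 3R and X. The gaps were chosen by position alone and no measured value entered the rule, although earlier results of these data were known when it was set. The ends of 2L from 22 Mb, of 3L from 22.9 Mb and of 3R before 4.2 Mb were left out. Inside these limits lay 259 deserts, of 315 such gaps on the 4 arms in full, with 18019 of the 383654 GATC fragments of each profile wholly inside them. For comparison, 197842 fragments lay wholly inside genes, 22210 in gaps of 5 to 20 kb and 9995 in gaps under 5 kb.

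DamID reads where a DNA-binding protein has been by the marks it leaves. The protein is fused to the bacterial enzyme Dam, which methylates the adenine of nearby GATC sites, and the restriction enzyme DpnI then cuts only the marked sites, so that marked fragments can be amplified and sequenced. Dam alone marks open chromatin, and each fragment is therefore scored as a log2 ratio, with Dam::CrebB in the numerator and Dam-only in the denominator. CrebB is the fly CREB protein, a basic leucine zipper transcription factor that binds cyclic AMP response elements and is known for its part in long-term memory. In flies, long stretches without genes often flank developmental regulators and hold their distant enhancers, while others lie close to the centromeres and hold mostly repeats.

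The study ran 30 libraries, 3 for each of 10 groups, from flies of genotype MB-Gal4>UAS-Dam-CrebB or, as control, MB-Gal4>UAS-Dam. The Gal4 driver was mb247, which is active in the mushroom bodies, the centres of olfactory memory, and whole heads (50 to 100 per sample) were the source of DNA. A temperature-sensitive Gal80 held the driver off until the shift to 29 °C in all groups. For naive flies the labels give no interval, so it is not known here whether Dam was on as long as in trained flies. In interval TI-1 Dam was on from 3 h before training to 24 h after it, with training at 25 °C, and in TI-2 from 24 h to 48 h, with training at 18 °C. Paired flies received an odor together with sucrose, unpaired flies received the same stimuli apart in time, and naive flies were not trained. Each Dam::CrebB library was deposited as a ratio over a Dam-only library, which gave 15 profiles: naive, paired TI-1, unpaired TI-1, paired TI-2 and unpaired TI-2, with 3 replicates each. By design only mushroom body cells that express Gal4 should be marked, so a desert is meant to be seen through those cells. Marking in other cells of the head was not measured. The flies were adult, and the labels give no age in days.

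The profiles hold ratios and no read counts, so depth is unknown, and it is not given which replicates shared a batch. The third replicates of paired TI-1 and paired TI-2 stood apart from the others. Over deserts, profile pairs with 1 of these 2 had a median correlation of 0.571, against 0.886 over the 75 pairs that held neither and were not both naive, and results that rest on them are given without them. As a check on the cells, in naive flies the gene bodies of 8 mushroom body genes ran from 0.03 (Fas2) and 0.11 (dnc) to 0.69 (toy). The neuronal gene elav was at 0.39, the photoreceptor gene ninaE at 0.18, the glial gene repo at -0.38 and the muscle gene Mhc at -0.23, so the markers did not separate cell types cleanly. These are binding ratios and not expression levels.

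The deserts were 20042 to 352326 bp long, with a median of 27670 bp. Arm 2L held 59 of them, 3L 74, 3R 60 and X 66. They held 6 to 959 fragments each (median 53), and 255 held at least 20. GATC sites were sparser there than in genes, with 2.12 against 3.10 fragments per kb and a median fragment length of 279 against 169 bp. Of the genes at their edges 29.5% were long non-coding RNAs, against 11.8% of all genes on these arms, and 65.8% were protein coding, against 79.0%. Many of these fragments held no value but 0: 3068 (17.03%) were listed at exactly 0 in all 15 profiles, against 4.19% inside genes. A 0 can stand for equal signal or for no reads, and the files do not tell them apart.

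Desert fragments carried a flatter Dam::CrebB profile than fragments inside genes. In the 3 naive profiles the desert mean was 0.013, 0.007 and 0.050, and the genic mean 0.068, 0.065 and 0.124. The naive group mean was 0.023 ± 0.023 in deserts and 0.086 ± 0.033 in genes (SD, n = 3). The desert mean was below the genic mean in 14 of 15 profiles, with a median difference of -0.055 and a range from -0.378 to 0.059. The exception was unpaired TI-2 replicate 3, at 0.074 in deserts and 0.015 in genes.

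The spread among fragments differed more clearly than the mean. The SD over desert fragments was 0.597 to 0.753 times that over genic fragments (median 0.720), and it was smaller in 15 of 15 profiles. Both tails were thinner. Fragments above 0.2 made up 10.4% to 27.6% of desert fragments and 16.4% to 45.8% of genic ones, and fragments below -0.2 made up 3.64% to 17.7% and 6.12% to 21.4%. Without the third replicates of paired TI-1 and TI-2, the difference in means ran from -0.080 to 0.059 over 13 profiles and the ratio of SDs from 0.640 to 0.753. The medians said little, since the many zeros held the desert median at exactly 0 in 14 of 15 profiles. These counts over profiles are descriptions, since the profiles are of the same fragments.

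**Figure D1:**
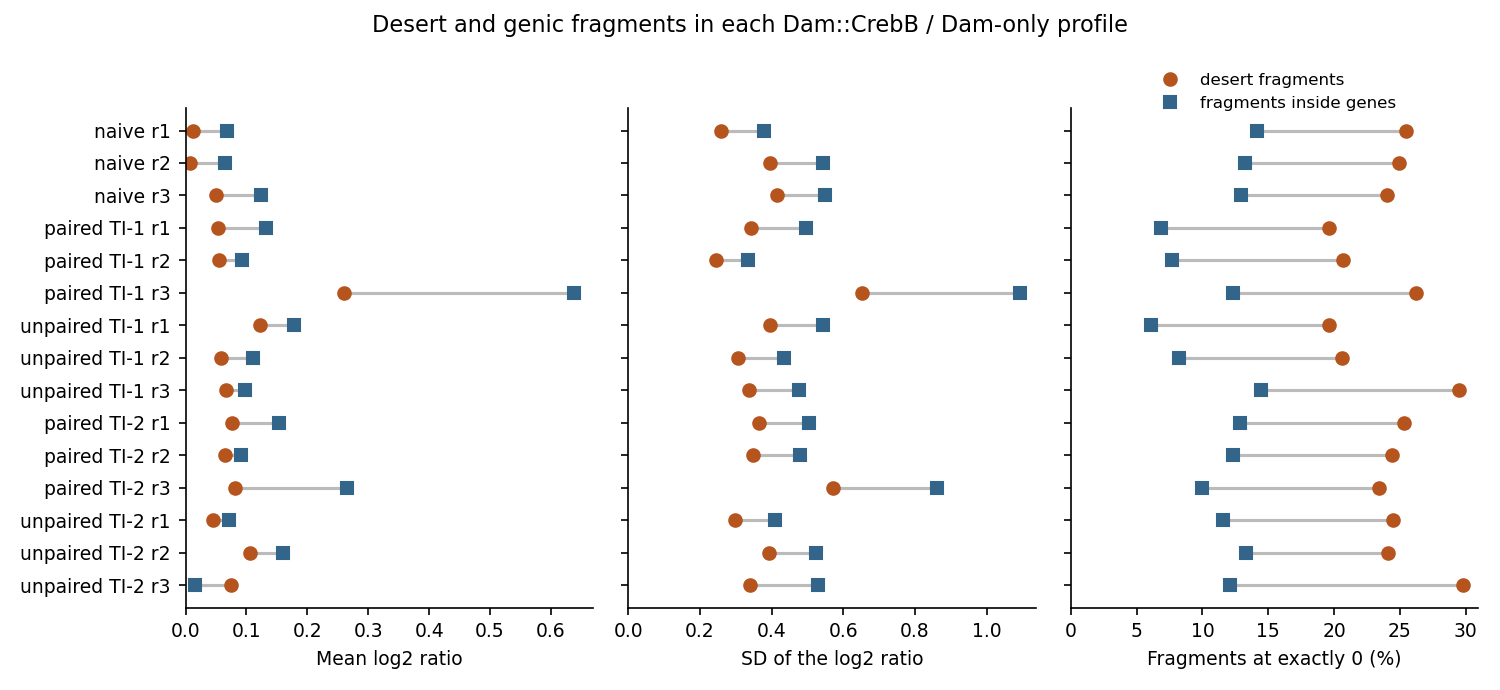
Mean log2 ratio (left), SD of the log2 ratio over fragments (middle) and percent of fragments at exactly 0 (right) in each of the 15 profiles, r1 to r3 being replicates, with circles for the 18019 desert fragments and squares for the 197842 fragments inside genes. The circle lies left of the square in 14 of 15 profiles for the mean and in 15 of 15 for the SD, and right of it in 15 of 15 for zeros.

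Zeros and fragment length moved with this difference. Between 19.6% and 29.8% of desert fragments were at 0 in a profile, against 6.12% to 14.4% of genic ones. Among fragments with no 0 in any profile (62.9% of desert and 76.1% of genic fragments), the desert mean was still lower in 14 of 15 profiles and the median ratio of SDs was 0.789. In each of 5 classes of fragment length the desert mean was lower in 14 or 15 profiles. The median ratio of SDs was 0.753 for fragments under 100 bp and 0.625 for those of 800 bp or more, so the gap in spread was wider among long fragments.

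The arms were not alike. On 2L, 3R and X the desert mean lay below the genic mean in 14 of 15 profiles, but on 3L in only 3. In naive flies the 3L deserts averaged 0.093 ± 0.041 and 3L genes 0.083 ± 0.038 (SD, n = 3). A single desert, described below as the highest, weighs on this: without it the 3L mean was lower in 8 of 15 profiles, and the ratio of SDs went from 0.905 to 0.873. Deserts of X were the flattest, with a naive mean of -0.026 and an SD ratio of 0.439. Of the 6286 X fragments 3317, in 14 deserts, lay from 21 Mb on, where 1415 were at 0 in all profiles. Leaving out X from 21 Mb raised the ratio of SDs over all arms to 0.781, and the mean stayed lower in 14 of 15 profiles.

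Within deserts the ratio depended on the distance from the nearest gene. In naive flies fragments under 1 kb from a gene averaged 0.094 ± 0.038, those at 1 to 2 kb 0.051 ± 0.035, and those at 2 to 5 kb 0.013 ± 0.025 (SD, n = 3). The mean under 1 kb was above the mean at 2 to 5 kb in 15 of 15 profiles. Further in, the values levelled off at 0.025 and 0.028 for 5 to 10 and 10 to 20 kb. The 3047 fragments 20 kb or more from any gene averaged -0.007 ± 0.008, and 52.8% of them were at 0 in naive profiles, against 8.91% under 1 kb.

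The SD among fragments followed, from 0.466 under 1 kb to 0.215 at 20 kb or more in naive flies, and it was larger under 1 kb in 15 of 15 profiles. The innermost class lay largely on the centromere side of X. Without X from 21 Mb it kept 1049 of its 3047 fragments, in 26 deserts, with a naive mean of 0.034 and 31.6% at 0, while the mean was 0.101 under 1 kb and 0.019 at 2 to 5 kb. The fall over the first 5 kb therefore stood without that end of X, and the dip below 0 at 20 kb did not.

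**Figure D2:**
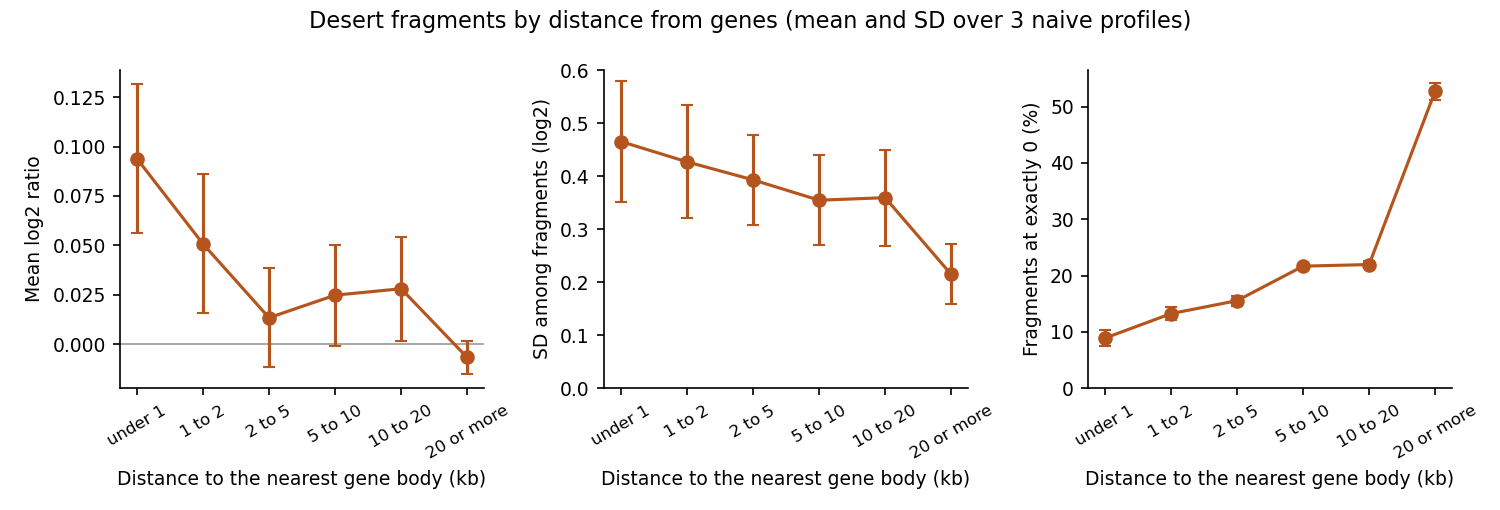
Mean log2 ratio (left), SD among fragments (middle) and percent of fragments at exactly 0 (right) of desert fragments against their distance from the nearest gene body in kb, where points are the mean and bars the SD over the 3 naive profiles. The mean falls from 0.094 under 1 kb to 0.013 at 2 to 5 kb, and zeros rise from 8.91% to 52.8%.

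The length limit marked no step in the mean. The 65 gaps of 18 to 20 kb, just outside it, averaged 0.024 ± 0.027 in naive flies, and the 45 gaps of 20 to 22 kb, just inside, 0.031 ± 0.028 (SD, n = 3). Deserts of 20 to 30 kb averaged 0.033, those of 30 to 50 kb 0.023, and the 19 of 50 kb or more 0.008 ± 0.011. Fragments in gaps under 5 kb averaged 0.167 ± 0.049 and those in gaps of 5 to 20 kb 0.058 ± 0.032. The naive SD among fragments was 0.545 and 0.426 in these, against 0.356 in deserts and 0.490 inside genes. The flatter profile was thus graded with gap length and shared in part by gaps of 5 to 20 kb. Over the 259 deserts, the naive mean and log10 of length had a Pearson correlation of -0.077.

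Each desert was next given 1 value per profile, the mean of its fragments weighted by their length, and each gene body likewise, so that both kinds of region could be fitted together. Naive desert means ran from -0.25 to 0.94 with a median of 0.016. In all 3 naive profiles 107 deserts were above 0 and 95 below. The order of the deserts was shared between profiles: naive pairs correlated at 0.921 to 0.971, and the naive mean correlated at 0.88 with the mean of the other 12 profiles. The correlation of a desert's naive mean with that of its edge genes was 0.42 (Spearman 0.36). These are correlations over 259 deserts, which share the libraries and the normalization, and no test was made of them.

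Deserts more than 0.2 above the genic level made up a smaller share than among all regions. In the limma fit over all 15 profiles, 30 of 259 deserts (11.6%) were called higher than the genic median of their profile, with 0.01 as the limit on the adjusted p (Benjamini-Hochberg) and 0.2 as that on the size, against 28.6% of the 17739 desert and gene regions tested. No desert was called lower, against 5.08% of all regions. The genic median itself ran from -0.005 to 0.134 (paired TI-1 replicate 3) over profiles, with a median of 0. The fit thus asked nearly whether a region lay above 0, not whether it exceeded other gene bodies. In naive flies the means of genes with at least 20 fragments had a median of 0.103. The gene regions also came from chromosomes and chromosome ends where no desert was sought. At an unadjusted p under 0.05 and beyond 0.2 the deserts were again 30 higher and 0 lower, against 32.4% and 6.29% of all regions. Among the 3892 genes with at least 20 fragments, 38.3% were called higher and 2.29% lower. The choice of genic reference decides the split: with the genic mean in place of the median, 10 deserts (3.86%) were called higher and 17 (6.56%) lower, against 19.7% and 19.9% of all regions. Without the size limit the comparison with all regions turned: with no minimum difference 110 deserts (42.5%) were called higher and 14 (5.41%) lower, against 34.4% and 11.1%. The 30 were spread unevenly over the arms, with 14 of 74 on 3L (18.9%), 8 of 60 on 3R (13.3%), 5 of 59 on 2L (8.47%) and 3 of 66 on X (4.55%). Among genes of at least 20 fragments on the same arms the shares were 35.2%, 43.2%, 32.7% and 36.8%.

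The naive profiles alone gave no calls at the main threshold. limma found 0 deserts above or below 0, or the genic median, and 0% of all 17739 regions, with a smallest adjusted p of 0.0112 among deserts. The genic median was 0 in each naive profile, so these comparisons were the same test. At an adjusted p under 0.05, 27 deserts (10.4%) were higher and 2 (0.772%) lower, against 28.3% and 17% of all regions, and at the main threshold 28 were higher than the genic median after quantile normalization and 15 over regions with at least 5 fragments. At an unadjusted p under 0.05 and beyond 0.2, 28 deserts were higher and 2 lower, against 29.7% and 17.8% of all regions. At single fragments the naive fit also made no call (0% of 344532). Of 14951 desert fragments, 11.5% were higher and 12.4% lower at an unadjusted p under 0.05 and beyond 0.2, against 17.8% and 13.2% of fragments inside genes.

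The highest desert lay between tRNA:Ile-TAT-1-2, an isoleucine tRNA gene, and CG13898, a protein-coding gene with only a systematic name, at 3L:770463-803426 (release 6). Its values were 0.70, 0.97 and 1.15 in naive flies, 0.84, 0.72 and 0.93 in paired TI-1, and 1.13, 0.90 and 0.81 in unpaired TI-1. In TI-2 they were 0.97, 0.77 and 0.997 for paired and 0.80, 0.87 and 0.69 for unpaired flies. The 5 groups overlapped throughout, and the lowest value was above the highest value of every other desert named by rule. Its estimate over all profiles was 0.87 ± 0.037 (SE), with a limma adjusted p of 4.69e-08.

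The signal there was not from 1 site. Of its 113 fragments 58 (51.3%) were above 0.2 in each naive profile and 24 in all 15 profiles, while only 2 were below -0.2 in each naive profile. Some adjacent short fragments held the same value, so these are not counts of separate measurements. It held 8 separate runs of 3 or more adjacent fragments above 0.2 in each naive profile. The tallest run spanned 3L:774059-775624, with a naive mean of 2.37 ± 0.40 (SD, n = 3) and 1.46 to 2.95 in the other 12 profiles. A later run at 3L:791293-794771 had a naive mean of 1.74 ± 0.35, so elevated blocks reached over most of the gap.

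**Figure D3:**
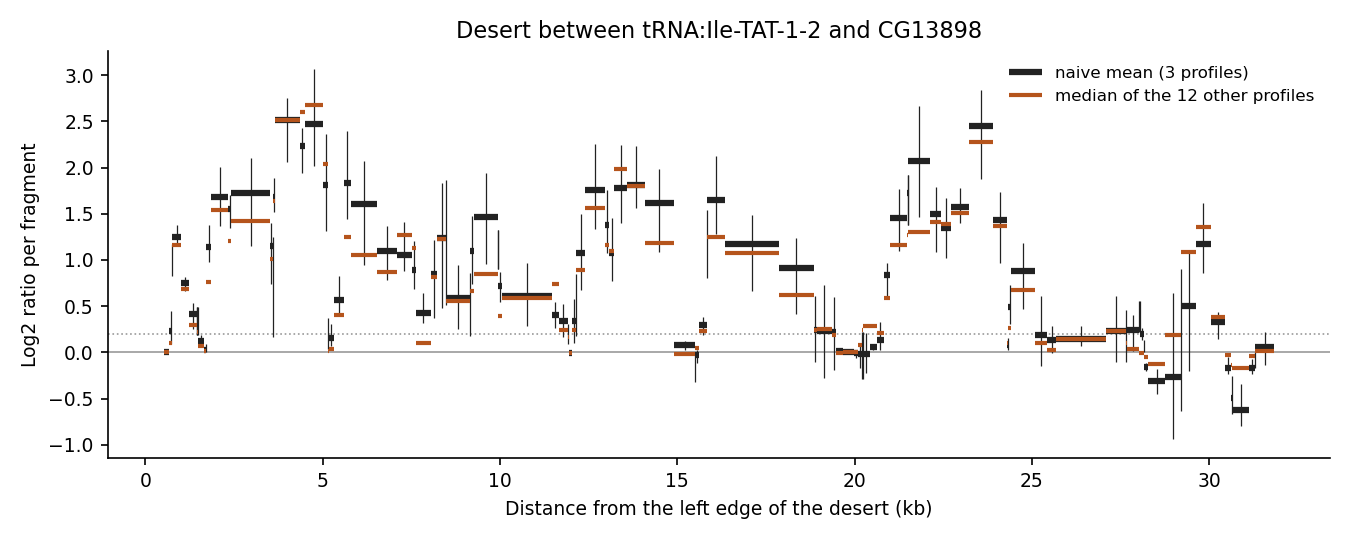
Log2 ratio per GATC fragment across the desert between tRNA:Ile-TAT-1-2 and CG13898, against the distance in kb from its left edge. Black bars are the naive mean with thin lines for the lowest and highest of the 3 profiles, brown bars the median of the 12 other profiles, and the dotted line 0.2. Blocks of high fragments, up to 2.51, alternate with fragments near 0, and the last kb fall to -0.62.

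Another 5 deserts were chosen for a high naive mean among those with at least 20 fragments, so their naive values are a description. The desert between MFS9 and MtnE, a metallothionein gene, at 3R:20512469-20534020 had naive values of 0.26, 0.63 and 0.65. The other 12 profiles ran from 0.28 to 0.57 around a median of 0.41. It was above 0.2 in every profile. Its estimate over all 15 profiles was 0.41 ± 0.032 (SE, limma adjusted p 9.47e-07).

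The desert between Rdl, which encodes a subunit of the GABA-gated chloride channel, and Slc45-1 at 3L:9182150-9203064 had naive values of 0.26, 0.60 and 0.56 and values of 0.14 to 0.61 elsewhere (median 0.34). The desert between lncRNA:CR45245 and lncRNA:CR44543 at 3L:10387798-10410871 had 0.27, 0.52 and 0.55, and 0.17 to 0.59 elsewhere. Both were above 0 in every profile, and both were called higher (limma adjusted p 1.2e-05 and 2.15e-06, estimates 0.38 and 0.39).

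Close by on 3L, the desert between Ir67c, an ionotropic receptor gene, and Gem3, a DEAD-box helicase of the SMN complex, had naive values of 0.32, 0.47 and 0.56. Elsewhere it ran from 0.10 to 0.55, with the third replicates of paired TI-1 and TI-2 lowest. The desert between Eaf6 and Blimp-1, a zinc finger repressor, at 3L:5608301-5630982 had 0.28, 0.60 and 0.51, and 0.02 to 0.48 elsewhere. Its lowest value was from paired TI-2 replicate 3. Their estimates were 0.33 and 0.29 (limma adjusted p 1.22e-05 and 5.42e-05).

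Among the other called deserts, some were bordered by named genes, picked here after their values were seen. The desert between vvl, a POU domain transcription factor, and lncRNA:CR45115 (3L:6794942-6865448, 70.5 kb) had a naive mean of 0.319 ± 0.091 (SD, n = 3) and no value under 0.20, with 7 runs above 0.2 spread along it. Its estimate was 0.31 ± 0.020 (SE, limma adjusted p 2.28e-07). The deserts beside ham (zinc finger factor), corto (chromatin protein), hry (bHLH repressor) and Tollo (Toll family receptor) had estimates of 0.35, 0.34, 0.30 and 0.29. The desert between the BTB factor genes bab1 and bab2 was called at 0.24. It was lowest in naive flies, at 0.10, 0.13 and 0.14, while the 4 trained groups, whose time of induction may differ, averaged between 0.243 and 0.314. The desert beside Ser, a Notch ligand gene, was called at 0.21, with 0.99 in paired TI-1 replicate 3 and a median of 0.15 over the 15 profiles.

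Of the 30 called deserts 10 were called under every alternative that kept them: those beside tRNA:Ile-TAT-1-2, MFS9, lncRNA:CR45585, lncRNA:CR45245, CG43098, Rdl, lncRNA:CR45411, ham, lncRNA:CR44526 and corto. Their limit was the genic mean as reference, which kept just these 10. Without the third replicates of both paired groups 25 of the 30 were still called. The 5 lost were those beside Ser (0.14), lncRNA:CR45476 (0.16), CG44013 (0.18), lncRNA:CR42844 (0.18) and eIF4E4 (0.19), all still above 0. Without the naive group 27 were called, with fragments at least 2 kb from genes 25, and with the replicate number as a block 19, so that 11 of the 30 were lost under the block. Above 0.2 in all 15 profiles were 6 deserts.

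Of the 6 lowest deserts 4 lay beside genes of developmental transcription factors, D, mirr, Dr and opa. The desert between lncRNA:CR45887 and D (Dichaete, a Sox family factor) at 3L:14135103-14175609 had naive values of -0.19, -0.30 and -0.25, chosen for being low. In the other 12 profiles it ran from -0.19 to 0.18 with a median of -0.11, and 11 of the 12 were below 0. Its estimate over all profiles was -0.13 (limma adjusted p 0.000119), short of the size limit of 0.2, and -0.10 without the naive group. The desert between mirr, an Iroquois homeobox gene, and SmD1 had naive values of -0.14, -0.20 and -0.21 and an estimate of -0.12 (limma adjusted p 0.000146).

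The desert beside Dr, a homeobox gene, had naive values of -0.12, -0.23 and -0.22, and that beside opa, a pair-rule zinc finger gene, -0.15, -0.23 and -0.17. The desert between beat-Vc, of the beaten path family of immunoglobulin proteins, and CG31345 had -0.21, -0.24 and -0.19, and that between CG15258 and lncRNA:CR44859 -0.11, -0.23 and -0.16. In all 6 lowest deserts the highest of the 15 values came from paired TI-1 replicate 3, at 0.49 beside Dr, 0.63 beside opa and 0.61 beside CG15258. Only 1 desert, between CG17601 and Cda4 on X, was below 0 in all 15 profiles, and 25 were below 0 in all 13 without the third replicates of the paired groups. A further 92 were above 0 in all 15. That side is not particular to deserts, since the mean over fragments inside genes was also above 0 in all 15 profiles.

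The longest deserts were flat. The longest, between lncRNA:flam, the source of piRNAs that silence transposons, and CG40813 (X:21790732-22143057), held 959 fragments, of which 50.7% were at 0 in all profiles. Its 15 values lay between -0.03 and 0.02. The gap between 2SrRNA:CR45864 and mir-10404-5 (X:23291730-23538214, 806 fragments), among ribosomal RNA copies, ran from -0.07 to -0.02 in 14 profiles and stood at 0.21 in paired TI-1 replicate 3. The gap beside SteXh:CG42398, a Stellate-like gene, at the tip of X (X:2181-122492) had 85.5% of its 256 fragments at 0 in all profiles.

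The other 3 of the longest 6 were alike. They lay between CG41562 and CG14621 (53.1% of fragments at 0 in all profiles), between CG10651 and lncRNA:CR40341 on 2L (37.5%), and between ATbp and 28SrRNA-Psi:CR45853 (49.8%). Their naive values lay between -0.05 and -0.02, and their highest values, 0.04, 0.21 and 0.14, were all from paired TI-1 replicate 3. Since a 0 can also stand for no reads, a flat value in such gaps is not a measured absence of CrebB.

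**Figure D4:**
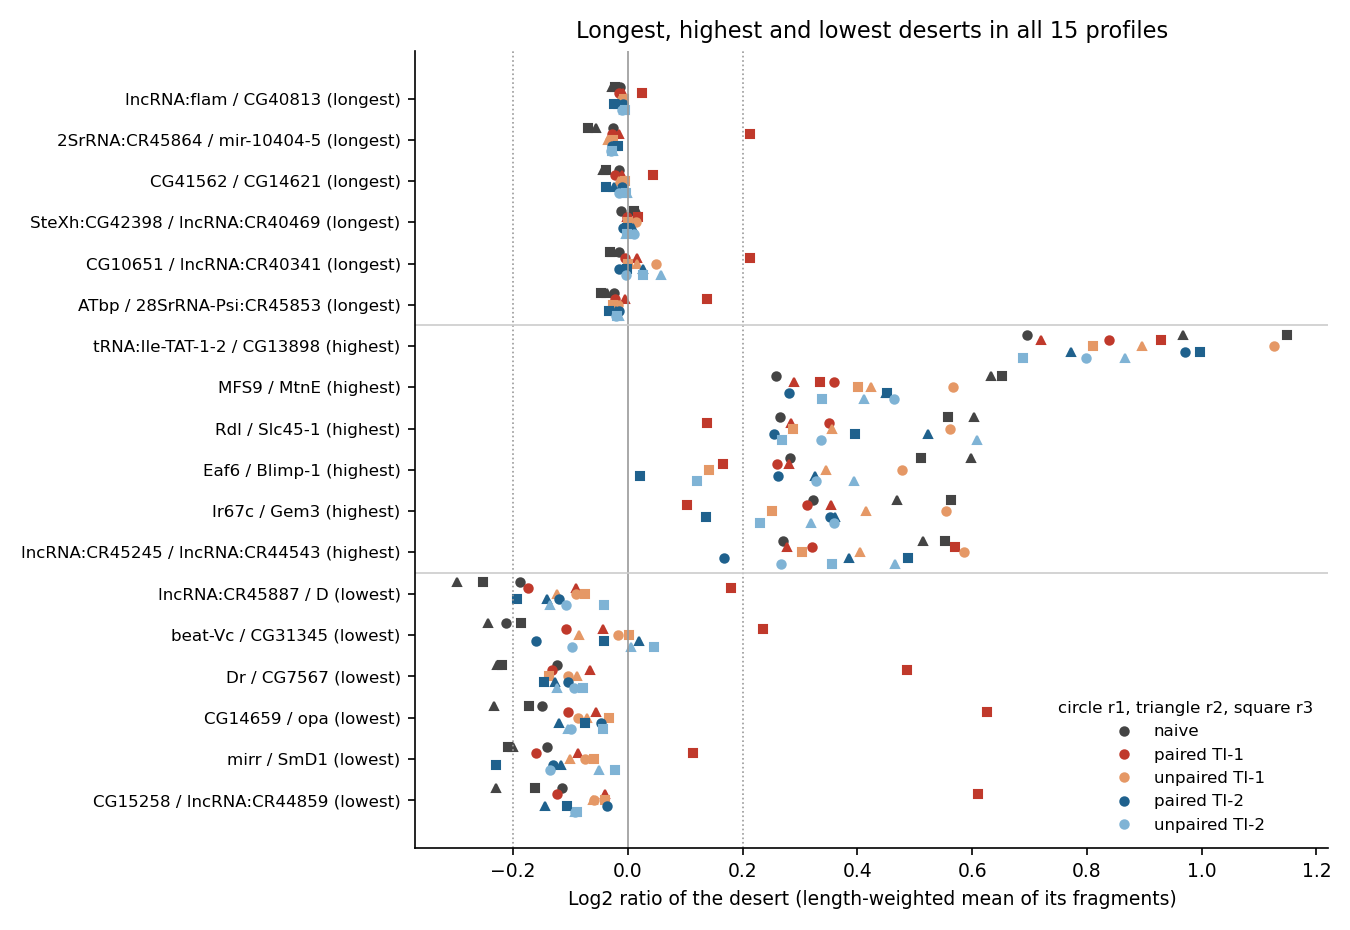
Log2 ratio of the 6 longest, 6 highest and 6 lowest deserts in all 15 profiles, each point 1 profile (colour for group, circle, triangle and square for replicates 1, 2 and 3) and dotted lines at -0.2 and 0.2. The tRNA:Ile-TAT-1-2 desert stands alone at 0.69 to 1.15, the longest deserts lie close to 0 except for points of paired TI-1 replicate 3 (up to 0.21), and paired TI-1 replicate 3 is the rightmost point of each of the 6 lowest.

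Local peaks occurred within many deserts, but held a smaller share of fragments than inside genes. Runs of at least 3 adjacent fragments above 0.2 in each naive profile numbered 233 in 121 deserts, or 27.4 per Mb of fragment length, against 71.1 per Mb inside genes. Runs are counted in fragments and GATC sites were sparser in deserts, so density per Mb is not like for like. Adjacent fragments are also not independent readings. In naive profiles neighbours correlated on average at 0.694 in deserts and 0.772 inside genes. Of desert fragments 5.71% lay in such runs, against 11.8% of fragments inside genes. Of the 233 runs 128 (54.9%) had a mean above 0.2 in all 12 other profiles, compared with 43.3% of genic runs. In the 10 other profiles without the third paired replicates the shares were 75.1% and 68.4%. The other profiles did not enter the choice of runs. The density of desert runs was 61.1 per Mb under 1 kb from a gene, 25.7 at 2 to 5 kb and 10.4 at 20 kb or more. It was not adjusted for the spacing of GATC sites.

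Runs below -0.2 numbered 117 in 81 deserts, or 13.8 per Mb against 38.4 in genes, and held 2.34% of fragments against 4.79%. Only 1 of them (0.855%, compared with 1.35% of genic runs) was below -0.2 in all 12 other profiles, and 16 (13.7%) were in the 10 without the third replicates of the paired groups, compared with 27.9% of genic runs. Runs of both signs were found in 41 deserts and none in 98. Most runs above 0.2, with 8 each, were in the tRNA:Ile-TAT-1-2 desert and in that between NijA, a ninjurin gene, and CG43245 (3L:10696878-10771924). The desert beside kni, a gap gene of the nuclear receptor type, held 7.

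The tallest fragment of each of 6 deserts, 1 per desert, was chosen on its naive value, among those of at least 100 bp with no 0. Other fragments of the same deserts can stand higher than the best of the next. The tallest, 3L:5610743-5611564 in the Eaf6 and Blimp-1 desert, lay 2443 bp from the nearest gene and had 2.80, 3.84 and 3.67 in naive flies. In the other profiles it ran from 0.07 to 3.62 with a median of 2.86, and 11 of 12 were above 0.2. The exception was paired TI-1 replicate 3. A fragment of 2716 bp at 3L:121847-124562, 447 bp from the gene at the edge of the CG12483 and lncRNA:CR45401 desert, had 2.16, 2.68 and 3.26 in naive flies and 0.49 to 5.28 elsewhere.

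The tallest fragment of the tRNA:Ile-TAT-1-2 desert, 3L:774118-774818, had 2.06, 2.75 and 2.73 in naive flies and 1.39 to 2.80 elsewhere. The next desert's best fragment was 3R:7037130-7037849, only 29 bp from a gene, with a naive mean of 2.38 ± 0.92 (SD, n = 3), and 3L:3686315-3686803 in the CG43098 desert with 2.37 ± 0.35. All 3 were above 0.2 in every profile. The last, 3R:5074214-5075111 beside corto, had 2.33 ± 0.54 and was above 0.2 in 11 of the 12 others, with -0.62 in paired TI-1 replicate 3. Over all deserts 479 fragments (2.66%) in 131 deserts were above 0.2 in all 15 profiles, compared with 4.21% of fragments inside genes, and 5 were below -0.2 in all 15.

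Grouped by the genes at their edges, deserts beside a list of developmental transcription factors were low in naive flies. There were 31 of them, and their naive mean had a median of -0.060 and ran from -0.25 to 0.32. All 3 naive profiles were below 0 in 20 of the 31 (64.5%), compared with 95 of all 259 (36.7%). In the other 12 profiles the median of their mean was 0.043, compared with 0.072 over all deserts. Of the 31, 2 were called higher (6.45%, compared with 11.6% of all deserts), those beside vvl and bab1. The list left out ham, hry and Blimp-1, whose deserts were all called higher, with estimates of 0.35, 0.30 and 0.29. Their naive means were 0.35, 0.21 and 0.46, so the share called depends on which genes the list holds. The 31 listed deserts were not empty of peaks. They held 30.3 runs above 0.2 and 24.4 runs below -0.2 per Mb of gap, compared with 26.4 and 13.2 over all deserts. These densities were not adjusted for the spacing of GATC sites.

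Deserts beside neuronal adhesion and guidance receptors were nearer the rest. There were 20, with a median of 0.023 in naive flies, 9 above 0 and 5 below 0 in all 3, and 1 called, beside Tollo. Ion channel and transmitter receptor genes bordered 4, with a median of 0.063 and 1 called, that beside Rdl. Of the 29 mushroom body and memory genes in the table only Eip93F, an ecdysone-induced factor, bordered a desert, which averaged 0.113 in naive flies and was not called.

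The comparison of paired with unpaired training asks whether learning moved CrebB. In limma on the 3 differences within replicate numbers, no desert was called in TI-1 or TI-2, nor was any other region (0%). At an unadjusted p under 0.05 and beyond 0.2 there was also no desert, against 183 lower (1.03%) and 1 higher (0.00564%) of all regions in TI-1, and 53 lower (0.299%) and 51 higher (0.288%) in TI-2. The smallest adjusted p among deserts was 0.843 in TI-1 and 0.893 in TI-2. The difference between the intervals gave no call either, nor any desert at an unadjusted p under 0.05 and beyond 0.2, with an adjusted p of 1. With 3 differences per interval and the spread seen here, changes in single deserts were not detectable, which does not show that there were none.

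The TI-1 pairs did not move together, and in TI-2 the direction depended on the measure. The median over deserts was -0.086, 0.001 and 0.173 in the 3 TI-1 pairs and -0.006, -0.029 and -0.006 in the TI-2 pairs. Over genes with at least 20 fragments it was -0.097, -0.019 and 0.449 in TI-1, and 0.021, -0.046 and 0.158 in TI-2. The third TI-1 pair, which holds paired TI-1 replicate 3, went up in both kinds of region. In TI-1 15 deserts (5.79%) were below 0 and 1 (0.386%) above 0 in all 3 pairs, compared with 10.1% and 10.3% of genes. In TI-2 59 (22.8%) were below and 10 (3.86%) above, compared with 8.87% and 8.60% of genes. These gene shares are of all 17480 genes, whatever their number of fragments. The counts are of signs alone, many of them of differences close to 0, and were not tested. The plain mean over desert fragments was 0.031, -0.041 and 0.007 in the TI-2 pairs. By that measure the TI-2 pairs did not share a direction, although the medians over deserts were all slightly below 0.

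**Figure D5:**
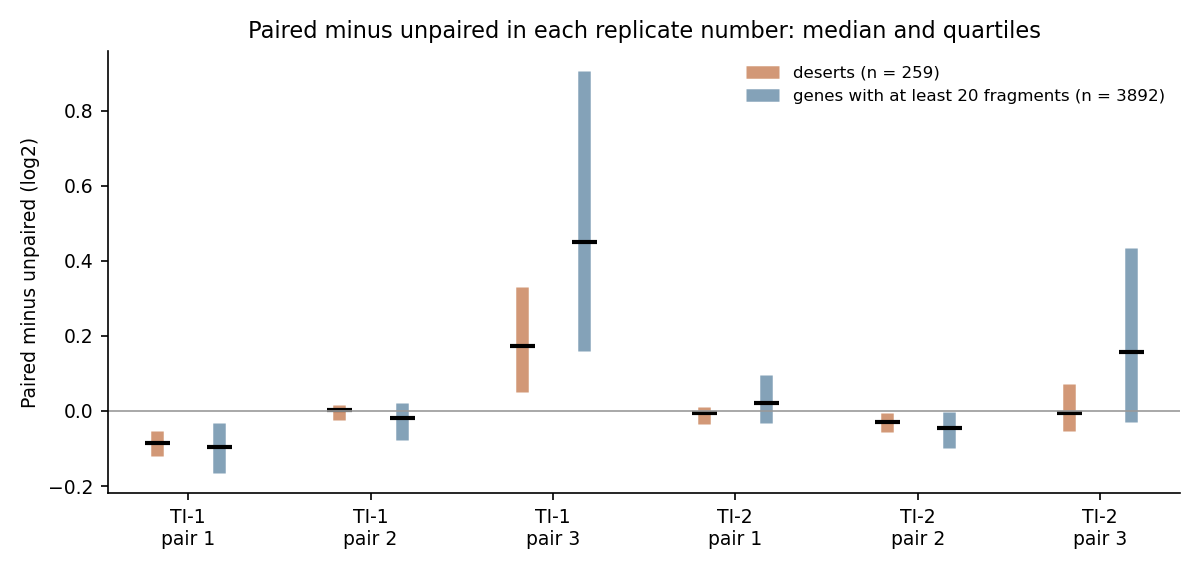
Paired minus unpaired difference in log2 ratio in each replicate number of TI-1 and TI-2, for the 259 deserts and the 3892 genes with at least 20 fragments, with boxes from the lower to the upper quartile over regions and a line at the median. Desert boxes are narrower than gene boxes in each pair, and TI-1 pair 3 is the highest, at 0.173 in deserts and 0.449 in genes.

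The deserts with the smallest p in TI-1 all had lower values after paired training. Between CG12483 and lncRNA:CR45401 (3L:98376-125008) paired flies had 0.35, 0.24 and 0.04 and unpaired flies 0.50, 0.37 and 0.40, with differences of -0.15, -0.13 and -0.36 (limma unadjusted p 0.121). The groups did not overlap, but 39.7% of its fragments were at 0 in all profiles. Its fragment of 2716 bp at 3L:121847-124562 had 3.59, 2.07 and 0.49 in paired and 3.90, 3.36 and 3.55 in unpaired flies. Values are weighted by length, so the level of this desert and its differences rest in part on that 1 fragment. The desert was not fitted without it. The Ir67c and Gem3 desert had 0.31, 0.35 and 0.10 in paired and 0.55, 0.41 and 0.25 in unpaired flies, with differences of -0.24, -0.06 and -0.15. The Rdl and Slc45-1 desert had 0.35, 0.28 and 0.14 against 0.56, 0.36 and 0.29, with differences of -0.21, -0.07 and -0.15. In both the groups overlapped, although each difference was below 0. Their adjusted p was 0.843 for all 3.

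In TI-2 the desert between lncRNA:CR44216 and wb, which encodes a laminin subunit, at 2L:14241733-14263026 had 0.18, 0.08 and -0.06 in paired and 0.30, 0.23 and 0.14 in unpaired flies. Its differences were -0.12, -0.15 and -0.20 (limma unadjusted p 0.0656), and the groups overlapped. The CG13970 and CG10651 desert (2L:20104151-20133754) had differences of -0.05, -0.12 and -0.27, and the CG6142 and CG31323 desert (3R:26137149-26170846) -0.11, -0.14 and -0.03. The adjusted p was 0.893 for all 3. Of all 259 deserts 6 were below 0 in all pairs of both intervals and 1 above, and none went one way in TI-1 and the other way in TI-2.

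Single fragments gave the same picture, with no call among 14951 desert fragments in either interval (0% of 344532). At an unadjusted p under 0.05 and beyond 0.2, 4 desert fragments were higher and 183 lower in TI-1, and 78 higher and 87 lower in TI-2. In TI-1 these were 0.0268% and 1.22% of desert fragments, against 0.0374% and 1.56% of all fragments tested. In TI-2 they were 0.522% and 0.582%, against 0.629% and 0.459%. Only the lower share in TI-2 was larger in deserts, and these differences in share were not tested.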

How the data were processed

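Targeted DamID libraries of fly heads were processed by the authors, who aligned read 1 with the DamID-seq pipeline (its version is not given in the sources used here), extended reads, normalized libraries and added pseudocounts. The authors deposited 1 profile of log2 ratios of Dam::CrebB over Dam-only per GATC fragment and replicate, on release 6 (annotation 6.22). Read counts are not in these values, so depth is unknown and no counting error can be given. The 3 further tables hold the authors' own gene-level comparisons and were not used. Gene positions came from the RefSeq table of Release 6, with 17807 genes placed. A value missing for 1 fragment in 1 profile was set to 0.

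Region values were length-weighted means over fragments, for deserts and gene bodies. limma 3.58.1 (R 4.3.3; lmFit and eBayes, two-sided) was fitted over 17739 regions or over 344532 fragments not at 0 in every profile, with Benjamini-Hochberg adjustment over all of them. Paired minus unpaired was fitted on differences within replicate numbers, as the labels list them. Genes and fragments in these fits came from every chromosome, without the position limits set for deserts. Calls needed an adjusted p under 0.01 and a difference beyond 0.2. The scripts were tested on simulated data. Nothing in the labels shows that replicates came from separate fly cultures, although the methods call them biological, and p-values measure the spread between these profiles.

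Deserts named were the 6 longest, the 6 highest and 6 lowest by naive mean and, per interval, the 3 with the smallest p, each among those with at least 20 fragments (except the longest), plus the highest fragment of 6 deserts. Called deserts, the CG17601 and Cda4 desert and those with most runs were named after their values were seen. The deserts, the gene lists and the tests were chosen with earlier results of these data known. Alternatives are given in the closing section. Tables were handled with Python 3.11.15, pandas 2.3.3 and numpy 2.4.6.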

Additional observations from a re-analysis of the deposited data

How the results depend on the processing

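Over all 15 profiles, 22 deserts were called higher with a replicate block (8.49%, against 16.2% of all regions), 19 of them among the 30. Without the third replicates of both paired groups 28 were higher (10.8%, against 28.6%). With gaps of 10 kb or more 128 of 739 were higher (17.3%, against 28.4%), and with gaps of 40 kb or more 2 of 37 (5.41%, against 28.8%). With no minimum difference 110 of 259 were higher and 14 lower (42.5% and 5.41%, against 34.4% and 11.1%). With the genic mean as reference, added after seeing the data, 10 were higher and 17 lower (3.86% and 6.56%, against 19.7% and 19.9%). Leaving out each replicate number gave 24 to 31 higher. In naive flies, tested against 0, 7 deserts were higher with exact 0 values left out, 30 after quantile normalization (28 against the genic level), 15 higher and 2 lower over regions with at least 5 fragments, 27 higher and 2 lower at an adjusted p under 0.05, and 3 with regions at 0 in all 3 profiles left out (added after seeing the data). The counts against the genic level were otherwise the same. At the main setting this was fixed in advance, since the genic median was 0 in each naive profile. Leaving out each naive replicate in turn gave 0 to 13 higher, the 13 without replicate 1 (5.02%, against 17.4% of all regions). With the genic mean as naive reference, also added, 12 were higher and 13 lower (4.63% and 5.02%, against 18.5% and 20.3%). At an adjusted p under 0.05, 77 desert fragments were higher and 120 lower (0.515% and 0.803%, against 1.29% and 0.843% of all fragments). The cause of these changes was not tested.

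The desert median minus the genic median averaged -0.0083 over profiles. This average rested on paired TI-1 replicate 3, at -0.131, while the median over profiles was 0. It turned to 0.00034 after quantile normalization and was -0.013 to 0.00025 with each replicate number left out, positive without replicate 3. The desert mean minus the genic mean averaged -0.075 over profiles, and -0.119 to -0.052 over its own alternatives. Paired minus unpaired gave 0 calls under every alternative run, also with no replicate block. Same-numbered paired and unpaired profiles had correlated deviations of 0.53, 0.03 and 0.46 in TI-1 and -0.12, -0.09 and -0.25 in TI-2, and pairing by number is therefore not established. Among named deserts no estimate reversed, 67 comparisons with an alternative lost the call and 8 gained it.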
